A study of Mus musculus with 4 samples.

Results

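The genes described here mark T cells, cytotoxic and natural killer (NK) cells, and B cells, the lymphocytes that a piece of liver carries along with its hepatocytes. They are 41 listed genes, of 23462 genes that could be named on the arrays, and all 41 had at least 1 probe whose transcript accession led to the listed symbol, with 58 probes in all. Of the 41, 22 belong to T cells, 11 to cytotoxic and NK cells, and 8 to B cells. Liver RNA was taken from 24-week-old male mice on a C57BL/6 background that were either Lpiat1 F/F, with both Lpiat1 alleles floxed and no Cre, or LKO, with the same floxed alleles and Cre driven by the albumin promoter. Lpiat1 is the older name of Mboat7, whose product puts arachidonic acid into phosphatidylinositol. The albumin promoter is active in hepatocytes, so the deletion is directed to them and not to lymphocytes, and it was not measured by cell type. Mice of each genotype were fed chow (CE2) or a high fat diet (HFD, HFD-60) for 18 weeks from 6 weeks of age. Each of the 4 combinations was measured on 1 one-colour Agilent array, and the sources used here do not say whether mice were pooled for it. With 1 array per condition no difference has a replicate check and no test was possible, so everything below compares 4 RNA samples.

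T cells recognise antigen through a receptor whose CD3 and zeta chains carry the signal into the cell, and the coreceptors CD4 and CD8 sort them into helper and cytotoxic lineages. Cytotoxic T cells and NK cells kill by releasing perforin and granzymes from granules. B cells signal through CD79A and CD79B, and their plasma cell progeny secrete immunoglobulin, whose polymeric forms are joined by the J chain. Mouse liver is known for its many NK cells, and T cells that gather in fatty liver are a known feature of steatohepatitis.

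Signals are the processed intensity of the spot, in the units of the scanner. Differences are on the log2 scale and each array was scaled by the 75th percentile of its own spots. For the chow arrays that percentile was 222 (F/F) and 213 (LKO), and for the HFD arrays 263 (F/F) and 296 (LKO). The extraction software called 53.0% to 57.0% of the spots well above background, the most on LKO HFD, and no spot was saturated. Where a gene has more than 1 probe, the one with the highest mean signal stood for it. A gene called well above background on 1 array of a pair only has a bound, written as "at least". The bound is taken against its value on the other array or the lowest value called there, whichever is higher. Where the called value did not exceed that, the gene has no value, and a gene called on neither array has none. Replicate spots of 1 probe on 1 array gave the technical spread, as the SD of the difference of a pair of spots: 0.35 (log2) for signals under 30, 0.20 from 30 to 100 and 0.076 above 100. The first of these rests on 13 and the second on 21 probe and array pairs, and none of them covers differences between arrays or between mice. For genes with 2 probes well above background, the log2 difference between LKO and F/F on HFD differed between the probes with an SD of 0.32. Of the hepatocyte genes used to check the tissue, 10 of 10 were well above background on every array, and Alb had signals of 221091 to 231569. Mboat7 signals were 1102 (F/F) and 861 (LKO) on chow, and 1181 (F/F) and 1100.0 (LKO) on HFD. That is a log2 difference between LKO and F/F of -0.30 on chow and -0.27 on HFD. Where its probe lies against the deleted exons is not known here, so it does not check the labels.

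Most lymphocyte genes were dim. Of the 41, 27 were well above background on all 4 arrays, 8 on 1 to 3 arrays and 6 on none. The number called was 35 on LKO HFD and 29 on each of the other arrays. Of all 23462 genes, 65.5% were called on LKO HFD, also the highest share, and 61.6% to 63.7% on the others. Cd8a, Foxp3, Sh2d1a, Ifng and Gzmk were called on the LKO HFD array alone. Those called on no array were Cd27 and Ctla4 among T cell genes, Eomes and Ncr1 among cytotoxic and NK genes, and Cd79a and Blk among B cell genes. Ncr1 encodes NKp46, the defining receptor of NK cells, and its signal lay between 1.87 and 2.74. Cd79a, a defining B cell gene, lay between 2.84 and 8.53. Of the 27 genes called on every array, 14 had their highest normalized value on LKO HFD, 9 on F/F chow, 2 on LKO chow and 2 on F/F HFD. Among all 13976 genes called on every array, 25.7% were highest on LKO HFD and 30.3% on F/F chow. In bulk RNA, more cells of a type and more RNA per cell cannot be told apart.

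**Figure D1:**
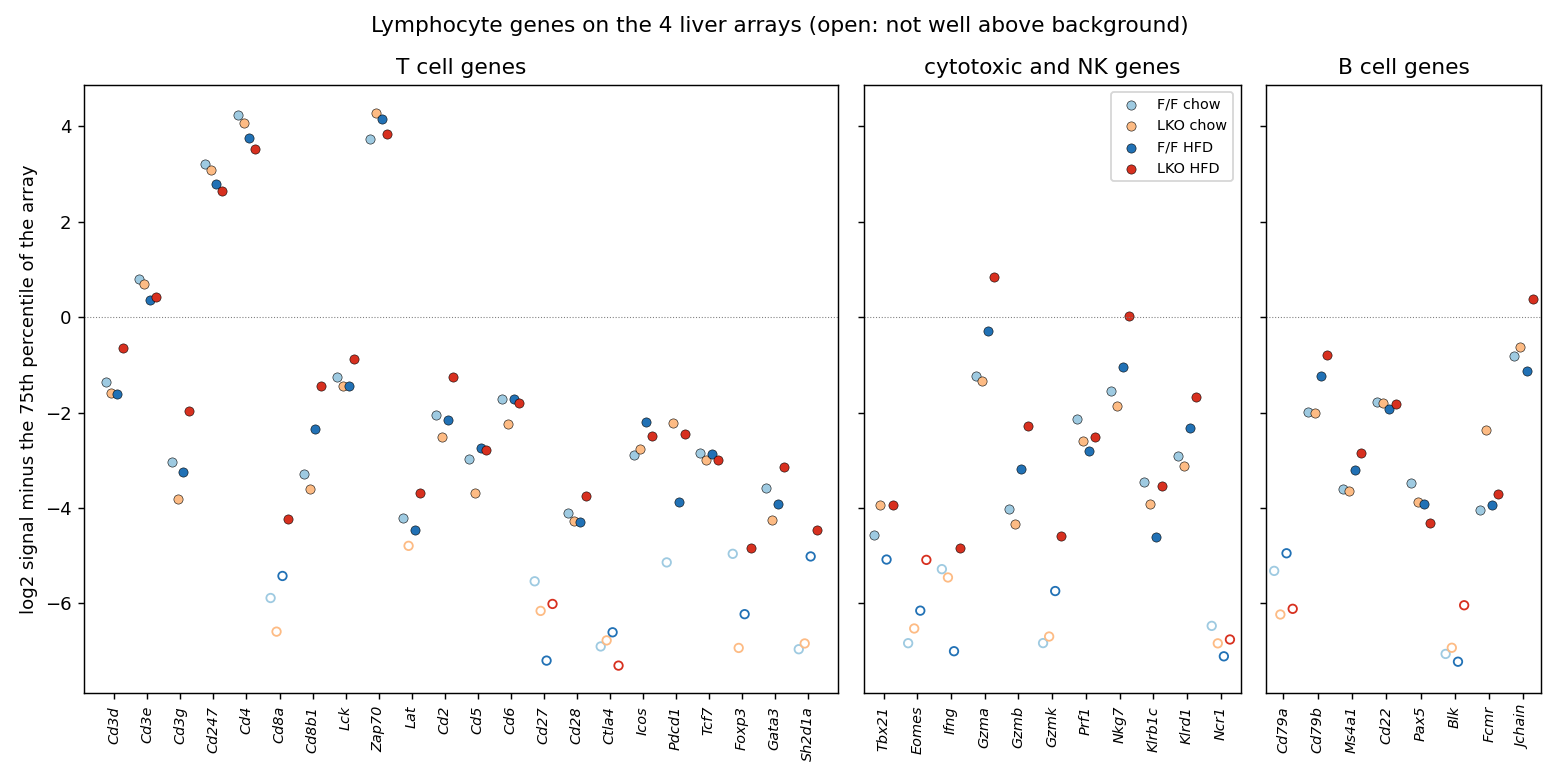
The level of each of the 41 lymphocyte genes on each array is plotted as log2 of the signal minus the 75th percentile of that array, in 1 panel per class. Filled points are well above background and open points are not. The red LKO HFD point is the highest of the 4 for Gzma, Gzmb, Nkg7, Klrd1, Cd3d, Cd3g, Cd8b1, Cd2 and Jchain, whereas the points of Cd4 and Cd247 lie close together with LKO HFD lowest.

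On HFD, lymphocyte genes as a group were higher in LKO than in F/F. Of the 29 genes measured on both HFD arrays, 21 were higher in LKO and 8 lower, with a median log2 difference of 0.55. Another 6 were above background on LKO HFD alone of this pair, so their bounds could only come out higher, and over the 35 genes with a value the median was 0.52, against -0.03 over all 15534 genes with a value. At least 2-fold higher were 7 of the 35 (20%), namely Jchain, Pdcd1, Cd3g, Gzma, Klrb1c, Nkg7 and, as a bound, Tbx21. Over all genes 2.4% were at least 2-fold higher and 1.91% at least 2-fold lower, and no lymphocyte gene was at least 2-fold lower. Dim probes vary more, and among genes with a mean signal under 100, 4.97% were at least 2-fold higher, against 4 of 26 lymphocyte genes (15.4%). By class, the median of the measured genes was 0.99 for cytotoxic and NK genes (6 of 6 higher), 0.55 for T cell genes (10 of 17 higher) and 0.30 for B cell genes (5 of 6 higher). Of the 29 measured genes, 15 were higher in LKO by more than 2 technical SDs, 2 were lower by more than that and 12 lay within. Normexp background correction started from the median signal and background of each spot, in place of the processed signal. It also adds 50 to each signal, and such an offset shrinks the differences of dim probes. With it the median was 0.09 and 1 gene, Jchain, stayed at least 2-fold higher. How much of this change came from the offset was not tested.

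On chow the same comparison ran the other way for most genes, but by less. Of 28 measured genes, 23 were lower in LKO and 5 higher, and with 2 bounds the median was -0.17 against 0.00359 over all genes. The 2 genes at least 2-fold higher (6.67%) were Pdcd1 and Fcmr, against 1.13% of all genes, and none was at least 2-fold lower, against 1.04% of all genes. With normexp neither reached 2-fold, at 0.61 for Pdcd1 and 0.50 for Fcmr. The medians were -0.31 for cytotoxic and NK genes (6 of 7 lower), -0.18 for T cell genes (13 of 15 measured lower) and -0.03 for B cell genes (4 of 6 lower), which turned to 0.0527 with normexp and to 0.0294 when the probes of each gene were averaged. Of the measured genes, 19 lay within 2 technical SDs, 6 were lower and 3 higher.

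**Figure D2:**
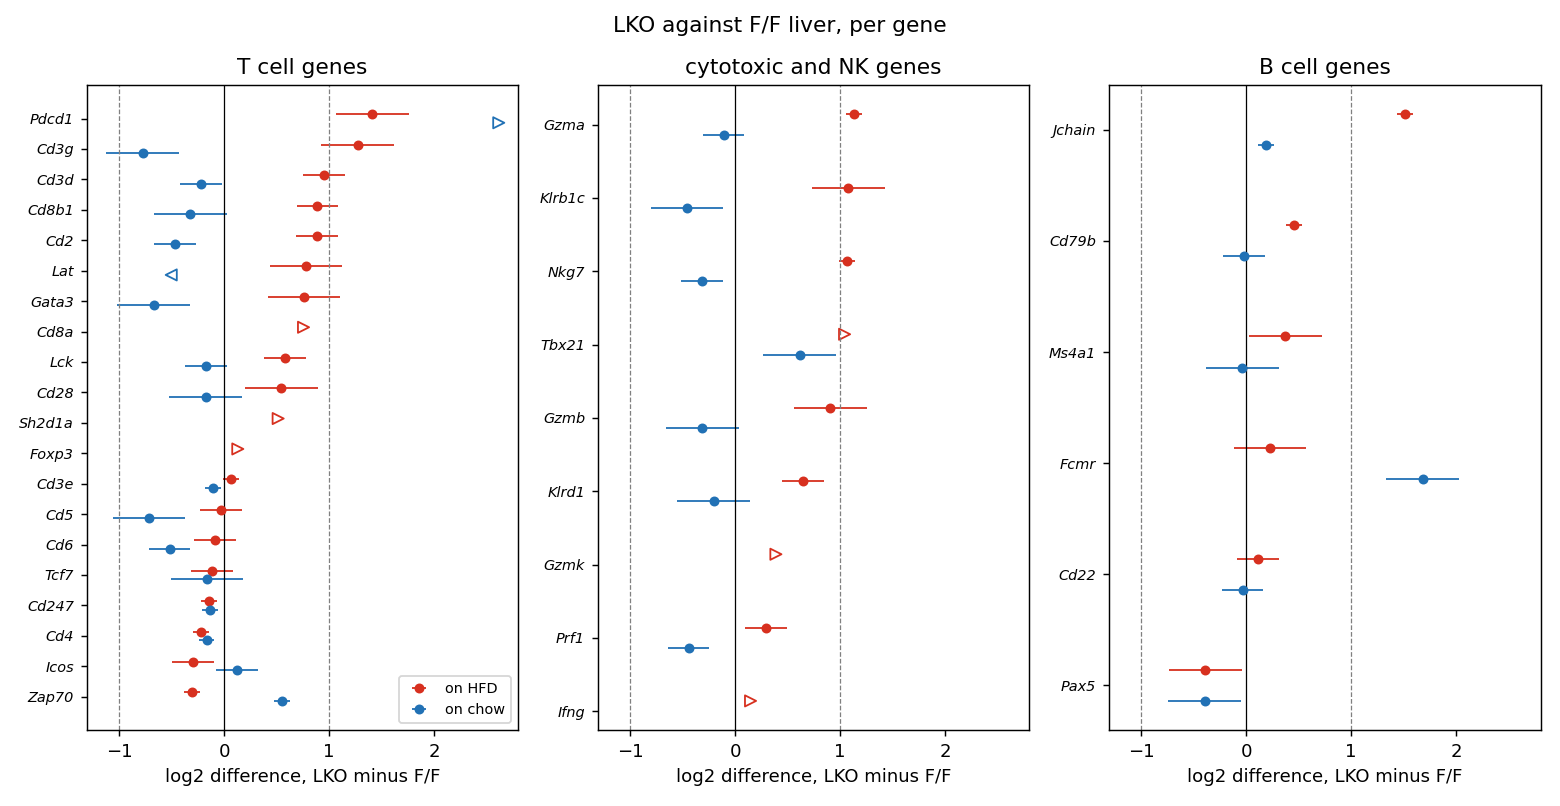
The log2 difference between LKO and F/F is plotted for each gene, in red on HFD and in blue on chow, with bars of 1 technical SD and open triangles for bounds. Dashed lines mark 2-fold. In the cytotoxic and NK panel the 6 measured red points lie right of 0, where the 3 red triangles had to lie, and all blue points but that of Tbx21 lie left of it, and in the T cell panel Zap70, Icos, Cd4 and Cd247 lie at the bottom.

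The chains of the T cell receptor complex did not move as one. Cd3g, which encodes the CD3 gamma chain, had signals of 26.8 (F/F) and 15.1 (LKO) on chow, and 27.8 (F/F) and 75.4 (LKO) on HFD. The LKO HFD array was the high one and LKO chow the low one, for log2 differences between LKO and F/F of 1.27 on HFD and -0.77 on chow. Cd3d (CD3 delta) had 86.1, 71.2, 86.3 and 188 in the same order (F/F then LKO on chow, F/F then LKO on HFD, as in every series of 4 signals below), again with LKO HFD apart from the other three, and 0.95 on HFD. Its other probe, at 48.1, 29.2, 50.5 and 119, gave 1.07. Cd3e (CD3 epsilon) had 385, 343, 337 and 396. It differed by 0.07 on HFD and its dimmer probe by 0.05, both within 2 technical SDs. Cd247 (the zeta chain) was at 2053, 1805, 1806 and 1837 and differed by -0.14. Of its other probes, one was at 6.47 to 12.0 and differed by -0.44, and the third was not well above background on any array. Beside Cd247, the receptor-proximal kinases gave no single answer. Lck had 92.4, 78.9, 96.3 and 162, highest on LKO HFD (0.58), while Zap70 had 2945, 4155, 4677 and 4248, lowest on F/F chow, and differed by -0.31 on HFD and 0.55 on chow. The adaptor Lat was well above background on all arrays but LKO chow, with a difference of 0.78 on HFD from 11.9 to 22.9.

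Among coreceptors, Cd8b1 (CD8 beta) had 22.7, 17.5, 52.0 and 108. Both HFD arrays were above both chow arrays, and LKO was above F/F on HFD by 0.89. Cd8a (CD8 alpha) was well above background on LKO HFD only, at 15.9, and was at least 1.69-fold higher there than on F/F HFD. The probe that stood for Cd4 was at 4183, 3585, 3534 and 3407, with LKO HFD lowest, and differed by -0.22 on HFD. Its other probe, for the same transcript accession, had signals of 4.58 to 8.59 and was not well above background on any array, so the level of Cd4 depends on the probe read. The same holds for Cd247 above. Without Cd4, Cd247 and Zap70, the 3 genes of highest signal, the median of the remaining 38 listed genes was 0.56 on HFD, and 21 of the 26 measured were higher in LKO.

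**Figure D3:**
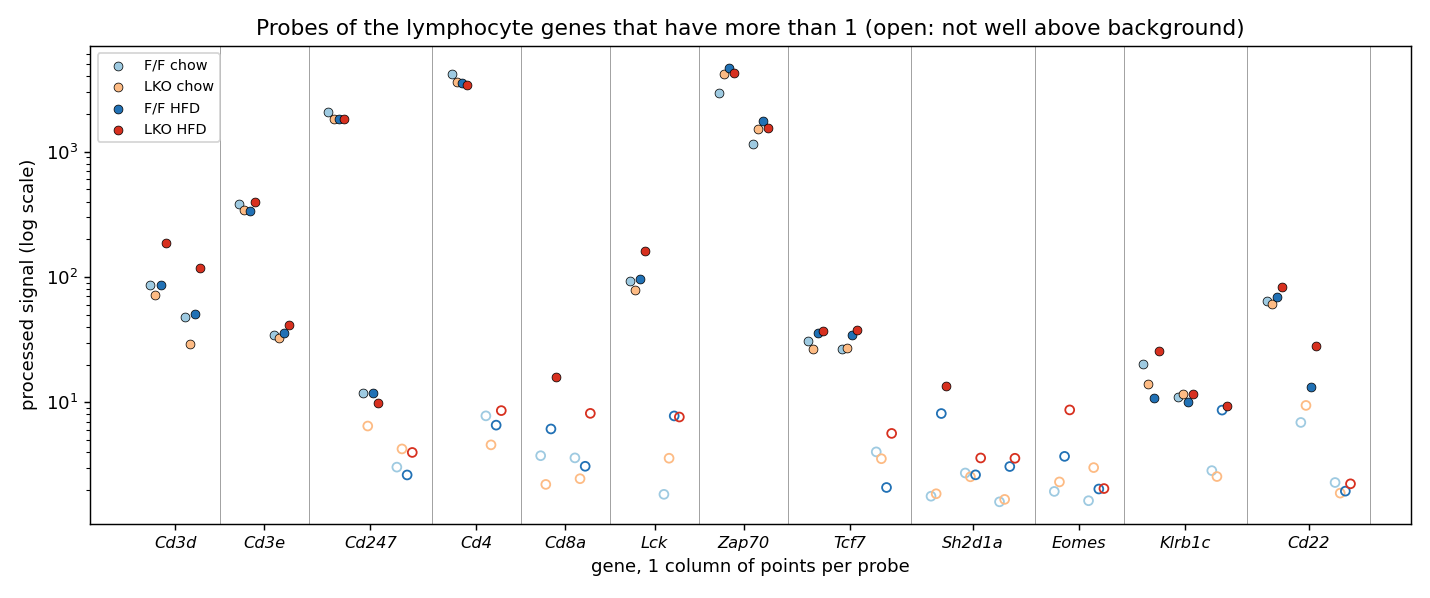
Signals on a log axis are plotted for every probe of the 12 lymphocyte genes that have more than 1, a column of 4 points per probe, coloured by array, filled where well above background. The probes of Cd3d keep the same order of arrays, whereas those of Cd4 and Cd247 lie orders of magnitude apart.

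The adhesion and costimulatory receptors were split. Cd2 had 53.5, 37.2, 59.3 and 123, with LKO HFD highest and a difference of 0.89 on HFD and -0.47 on chow. Cd28, the costimulatory receptor for B7 ligands, was higher in LKO on HFD by 0.55 with a signal of 13.4 in F/F, which is within 2 technical SDs. Cd5 and Cd6, scavenger-type receptors that tune T cell receptor signals, differed by -0.03 and -0.08 on HFD, and on chow both were lower in LKO, by -0.72 and -0.52. Icos, a costimulator of helper T cells, had 30.1, 31.5, 57.1 and 52.3, with both HFD arrays above both chow arrays. HFD and chow differed by 0.68 in F/F and by 0.26 in LKO. The latter was within 2 technical SDs, as was the difference of -0.29 between LKO and F/F on HFD.

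Pdcd1, which encodes the inhibitory receptor PD-1, followed genotype on both diets. On chow its signal was 6.29 in F/F, not well above background, and 46.0 in LKO. On HFD, F/F had 18.0 and LKO 53.8. Both LKO arrays thus lay above both F/F arrays. LKO was at least 6.13-fold above F/F on chow and 2.66-fold above it on HFD, a log2 difference of 1.41. With normexp the log2 differences were 0.61 on chow and 0.46 on HFD, below 2-fold. Ctla4, the other classical checkpoint receptor of the list, was at 1.86 to 2.71 and below background throughout.

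Of the transcription factors, Gata3, which directs type 2 helper T cells and is also active in other lymphoid and epithelial cells, had 18.5, 11.2, 17.5 and 33.3, for 0.76 on HFD and -0.67 on chow. Tcf7, a factor of naive and memory T cells, differed by -0.12 on HFD at 35.8 and 37.1, and its second bright probe by -0.04. Foxp3, which defines regulatory T cells, and Sh2d1a, the adaptor SAP, were called on LKO HFD only, at 10.3 and 13.4, at least 1.09-fold and 1.43-fold above F/F HFD. Tbx21 (T-bet, the factor of type 1 helper and cytotoxic cells, counted here with the cytotoxic and NK genes) had 9.43, 13.9, 7.78 and 19.3. It was not well above background on F/F HFD, and both LKO arrays were above both F/F arrays, at least 2.06-fold on HFD and by 0.61 on chow, the latter within 2 technical SDs.

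Several granule genes of cytotoxic cells shared an order of arrays. Gzma (granzyme A) had signals of 94.0, 83.8, 214 and 526. Gzmb (granzyme B) had 13.7, 10.6, 29.1 and 61.2, and Nkg7, a granule membrane protein, had 76.1, 58.9, 127 and 299. All 3 had the same order of arrays, with LKO chow lowest, then F/F chow, F/F HFD and LKO HFD. Between LKO and F/F on HFD the log2 differences were 1.13 for Gzma, 1.07 for Nkg7 and 0.91 for Gzmb, each over 2 technical SDs. Klrd1 (CD94, a receptor of NK and cytotoxic T cells) kept that order too, with 29.5, 24.6, 52.6 and 92.3 and a difference of 0.64. Prf1, which encodes the pore-forming perforin, did not, with 50.2, 35.5, 37.7 and 52.0. After scaling F/F chow was its highest array and F/F HFD its lowest, and its difference of 0.30 on HFD was within 2 technical SDs. Gzmk, a granzyme of memory-type T cells, was well above background on LKO HFD only, at 12.3, and Ifng (interferon gamma) likewise at 10.4, at least 1.31-fold and 1.11-fold above F/F HFD. For Klrb1c, the NK1.1 antigen, the probe used had 20.2, 14.1, 10.8 and 25.5 and differed by 1.08 on HFD, but a second probe, at 10.1 to 11.7, differed by 0.05, so its probes do not agree on a difference.

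The order of arrays shared by Gzma, Gzmb, Nkg7 and Klrd1 was not particular to them. Cd8b1, Cd79b and Ms4a1 kept it too, as did the macrophage genes Adgre1, Csf1r and Fcgr1. Of the pan-leukocyte list described below, Ptprc, Coro1a, Laptm5, Cd37, Itgb2, Rac2 and Was kept it. Cd52, Cd53, Itgal, Arhgdib and Vav1 did not, with LKO chow above F/F chow. The 250 bases before the transcription start of the listed genes were read from the RefSeq promoter table (build GRCm38.p6). They were searched on both strands for 5 short motifs of lymphocyte transcription factors: T-box (AGGTGTGA), RUNX (TGTGGT), octamer (ATGCAAAT), ETS (CAGGAAGT) and TCF/LEF (CTTTGAT). The table held 36 promoters for 30 of the 41 genes. Matches to the RUNX letters were present for 6 of 10 cytotoxic and NK genes, 2 of 15 T cell genes and 0 of 5 B cell genes, against 15.9% of the 27025 genes in the table. ETS letters were found for 6 of the 30 genes, against 3.13% of all genes, T-box letters for 1 (Nkg7, against 1.3%), TCF/LEF letters for 1 (Cd3d, against 3.72%) and octamer letters for none (against 1.81%). Shown are the stretches of Gzma, Gzmb, Nkg7 and Klrb1c, written 5′ to 3′ with the start just after the last base, because the 3 granule genes kept 1 order of arrays and Klrb1c did not. Capitals mark matches to the RUNX letters or their reverse complement (ACCACA) and, in Nkg7 only, the T-box letters close to its end.
Gzma, chr13:113100982-113101231, minus strand: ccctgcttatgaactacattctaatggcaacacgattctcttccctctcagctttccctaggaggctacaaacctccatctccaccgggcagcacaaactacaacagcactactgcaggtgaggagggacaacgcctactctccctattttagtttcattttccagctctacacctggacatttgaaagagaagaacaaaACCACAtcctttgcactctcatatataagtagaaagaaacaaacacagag
Gzmb, chr14:56262335-56262584, minus strand: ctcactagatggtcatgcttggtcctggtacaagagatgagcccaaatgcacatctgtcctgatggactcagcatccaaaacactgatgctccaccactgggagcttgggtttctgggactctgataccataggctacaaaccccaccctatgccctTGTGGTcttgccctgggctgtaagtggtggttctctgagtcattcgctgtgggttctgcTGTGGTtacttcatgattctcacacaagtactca
Nkg7, chr7:43436888-43437137, plus strand: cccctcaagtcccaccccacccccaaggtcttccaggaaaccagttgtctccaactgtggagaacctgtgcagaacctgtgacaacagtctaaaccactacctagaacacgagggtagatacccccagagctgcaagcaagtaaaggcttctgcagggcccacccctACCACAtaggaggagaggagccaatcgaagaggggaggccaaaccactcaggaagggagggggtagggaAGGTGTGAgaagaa
Klrb1c, chr6:128788642-128788891, minus strand: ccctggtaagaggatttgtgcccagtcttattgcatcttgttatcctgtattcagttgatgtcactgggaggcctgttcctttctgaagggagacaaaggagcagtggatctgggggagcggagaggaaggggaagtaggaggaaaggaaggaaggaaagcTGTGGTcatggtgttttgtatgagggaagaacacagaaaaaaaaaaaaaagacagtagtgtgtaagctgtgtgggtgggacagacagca
All 4 stretches hold at least 1 RUNX match and Gzmb holds 2, so among these 4 the letters are shared by the 3 that kept the order and by Klrb1c. Of others that did not keep it, Prf1 has a RUNX match and Tbx21 has none. Klrd1, Cd8b1, Cd79b and Ms4a1 kept the order but had no promoter to search. A match is a run of letters and was not tested as a binding site.

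Among B cell genes, Jchain stood apart. Its signals were 125 and 138 on chow and 120.3 (F/F) and 386 (LKO) on HFD. LKO HFD alone was high, for a log2 difference of 1.51 (2.85-fold) between LKO and F/F on HFD and 0.19 on chow. Under every alternative processing this difference on HFD stayed between 1.14 and 1.55. Cd79b, the B cell receptor beta chain, had 56.3, 53.2, 112 and 172, with both HFD arrays above both chow arrays and a difference of 0.45. Ms4a1 (CD20) kept the same order at lower signals, 18.3, 17.1, 28.4 and 41.3, and its difference of 0.37 was within 2 technical SDs. Cd22, an inhibitory coreceptor, differed by 0.11 in the probe used, whereas a dimmer probe, well above background on the HFD arrays only, differed by 0.92 at 13.3 and 28.3. Pax5, the factor that fixes B cell identity, had 19.9, 14.6, 17.4 and 15.0 and was lower in LKO on both diets, by -0.39 on HFD and -0.40 on chow, each within 2 technical SDs. Fcmr, the Fc receptor for IgM, was the exception on chow. It had 13.4, 41.4, 17.2 and 22.6, so LKO chow was the high array, 3.21-fold above F/F chow, whereas LKO and F/F differed by 0.23 on HFD.

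The effect of diet was read within each genotype, and these comparisons share arrays with those above. In LKO, 21 of 29 measured genes were higher on HFD than on chow, and with 4 bounds the median was 0.50, against -0.07 over all genes. At least 2-fold higher were 11 of 33 (33.3%, against 8.19% of all genes). Among genes with a mean signal under 100 they were 8 of 24, against 13.9% of all such genes. With normexp, 2 genes, Gzma and Nkg7, were at least 2-fold higher, the median was 0.0309, and the medians turned to -0.00541 for T cell genes and -0.0639 for B cell genes. Without it 1 gene, Fcmr, was at least 2-fold lower, against 4.09% of all genes, and with normexp none was. As reported, without normexp, the largest were Gzma at 2.18, Cd8b1 at 2.16, Gzmb at 2.05, Nkg7 at 1.87, Cd3g at 1.85 and Klrd1 at 1.44, followed by Cd2 at 1.26, Cd79b at 1.22, Gata3 at 1.10, Jchain at 1.02 and, as a bound, Lat. In F/F, 11 of 28 measured genes were higher on HFD and 17 lower, and with 2 bounds the median was -0.13 against -0.02 over all genes. By class it was 0.49 for cytotoxic and NK genes, -0.03 for B cell genes and -0.19 for T cell genes. None of the listed genes was at least 2-fold higher, where 5.25% of all genes were. Lower by at least 2-fold was 1, Klrb1c (-1.15), where 2.97% of all genes were. Its second probe gave -0.38, and its value was -0.36 with normexp and -0.0579 when its probes were averaged, so this call rests on 1 probe. The genes with the highest measured values in F/F were Cd8b1 at 0.95, Gzma at 0.94, Gzmb at 0.83, Cd79b at 0.74, Icos at 0.68 and Klrd1 at 0.59, while Cd3d (-0.24), Cd3g (-0.20), Cd2 (-0.10) and Lck (-0.19) lay below 0. The median of the listed genes in F/F changed sign, to 0.00527 with the deposited table of values and to 0.0488 with the dimmest probe of each gene.

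**Figure D4:**
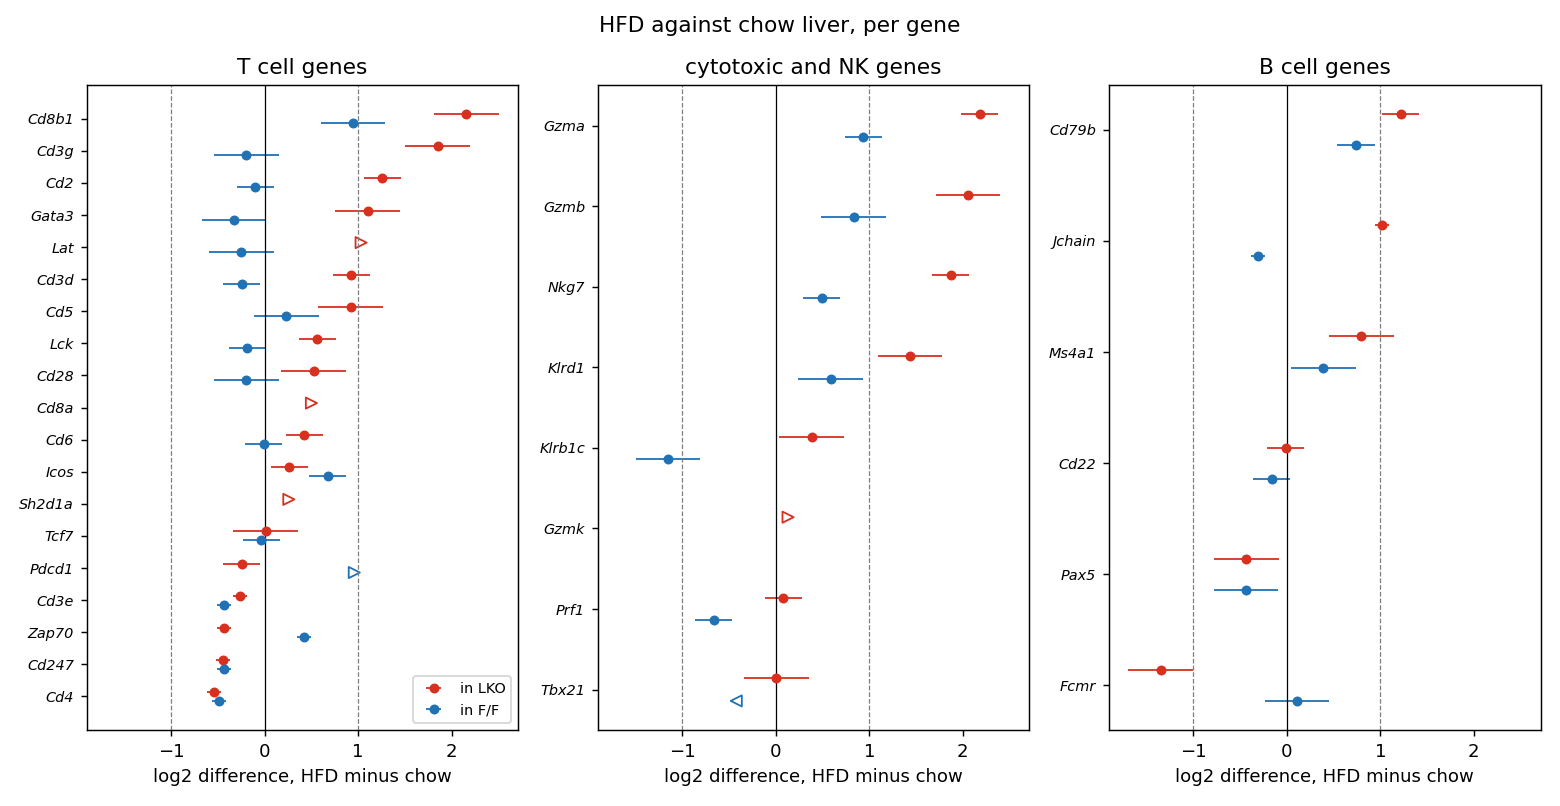
The log2 difference between HFD and chow is plotted for each gene, in red in LKO and in blue in F/F, with bars of 1 technical SD, open triangles for bounds and dashed lines at 2-fold. For Gzma, Gzmb, Nkg7, Klrd1, Cd8b1 and Cd79b both points lie right of 0 with the red one farther out, and for Cd3d, Cd3g, Cd2, Lck and Gata3 the red point lies right of 0 and the blue one left of it.

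Further lymphocyte genes, 73 on the arrays from 3 longer lists, were read in the same way. On HFD, 38 of 48 measured genes were higher in LKO. With 6 bounds, the median was 0.46, against -0.03 over all genes, and 10 of 54 (18.5%) were at least 2-fold higher and 0 at least 2-fold lower, against 2.4% and 1.91% of all genes. By list, the measured genes higher in LKO on HFD were 17 of 21 for T cells (median 0.50) and 15 of 17 for B cells (0.54). For cytotoxic and NK cells they were 6 of 10 (0.43), against 6 of 6 (0.99) in the listed class. The 4 lower ones there were S1pr5 (-0.84), Il12rb2 (-0.51), Cd244a (-0.20) and Xcl1 (-0.19). On chow, 25 of 40 measured genes of the 3 longer lists were lower in LKO, with a median of -0.0915. Between HFD and chow in F/F, 7 of 53 (13.2%) were at least 2-fold higher and 3 (5.66%) lower, against 5.25% and 2.97% of all genes. Their median was 0.01, with Themis highest at 3.40. In LKO, 17 of 48 (35.4%) were higher on HFD by that much and 2 (4.17%) lower, against 8.19% and 4.09%, with a median of 0.73. The 6 with the largest differences between LKO and F/F on HFD were Ly6d (242, 269, 2706 and 11757, with 1.95), Havcr2 (13.8, 14.7, 31.4 and 88.1, with 1.32), Blnk (198, 271, 688 and 1902, with 1.30), Mzb1 (1.25), Fasl and Cst7. Mzb1, a chaperone of antibody-secreting cells, had 17.1, 21.7, 19.9 and 53.2, so that LKO HFD alone was high, as for Jchain. Other genes of antibody-secreting cells in the longer B cell list gave no single answer. Sdc1 differed by 0.06 on HFD, but its signals of 1963 to 2403 were far above those of Mzb1, and which cells gave them was not tested. Prdm1 differed by 0.18 and Cd38 by 0.60, and Irf4 and Tnfrsf17 were well above background on no array. Pou2af1 had 62.0, 57.1, 21.5 and 35.0, with both chow arrays above both HFD arrays, and differed by 0.54 on HFD. Fasl, the death ligand of cytotoxic cells, was well above background on LKO HFD only and at least 2.36-fold higher there than on F/F HFD, and Cst7, a granule cystatin, had 11.7 and 29.3 on the HFD arrays (1.16). Havcr2 (TIM-3), Blnk, Tyrobp and Fcgr3 are expressed in myeloid cells as well, and Ly6d in cells of several kinds. Of the chemokines and survival factors that guide lymphocytes, 6 of 9 measured were higher in LKO on HFD, with a median of 0.24. Cxcl13, which draws B cells, went against them and had 855, 197, 175 and 22.2, lower in LKO on both diets by -2.06 on chow and -3.14 on HFD. Cxcl9 and Cxcl10, which draw CXCR3-bearing T cells, were higher on HFD in both genotypes, Cxcl10 with 247 and 143 on chow and 662 and 790.2 on HFD, and differed by 0.28 and 0.09 between LKO and F/F on HFD.

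Lists of other cells moved with the lymphocyte genes, and their part in the results was not tested. The pan-leukocyte list (Ptprc, Cd52, Coro1a and others) was higher in LKO on HFD in 12 of 12 genes, with a median of 0.67, and its summed level in units of the 75th percentile was 13.2, 13.3, 21.6 and 35.4. It was also higher on HFD in F/F, by a median of 0.57 with 12 of 12 genes higher. There the listed cytotoxic and NK genes had 0.49, the B cell genes -0.03 and the T cell genes -0.19. Monocyte and macrophage genes had a median of 0.69 on HFD (14 of 16 higher) and 0.59 for HFD against chow in F/F, with a summed level of 130.4, 125, 176 and 229.6, and dendritic cell genes 0.52 (8 of 9 higher) and -0.18. Neutrophil genes were lower in LKO on HFD (9 of 11, median -0.30) and on chow (8 of 11, median -0.27, with 1 bound). On HFD, Ltf (1.23) and Elane (0.10) were higher. The summed level of this list was 75.3, 68.0, 68.0 and 55.6. It rests most on its brightest gene, Csf3r, which had signals of 11536 to 11818 and differed by -0.13 on HFD. The red cell list was lower in LKO on HFD in 6 of 6 genes (median -0.97), with a summed level of 162, 161, 323 and 163. Exocrine pancreas genes took the same signs as the T cell genes in all 4 comparisons and were farther from 0, with medians of 1.87 between LKO and F/F on HFD (10 of 10 higher), -1.06 on chow (10 of 10 lower), -0.76 for HFD against chow in F/F and 1.98 in LKO. Their summed level was 25.7, 15.1, 13.5 and 50.2, and 10 of 10 were well above background on every array. Hepatocyte genes had -0.19 on HFD (8 of 10 lower). All of these lists were measured on the same 4 arrays, so differences in other cells or tissue in the sample cannot be told apart from those between genotypes or diets.

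**Figure D5:**
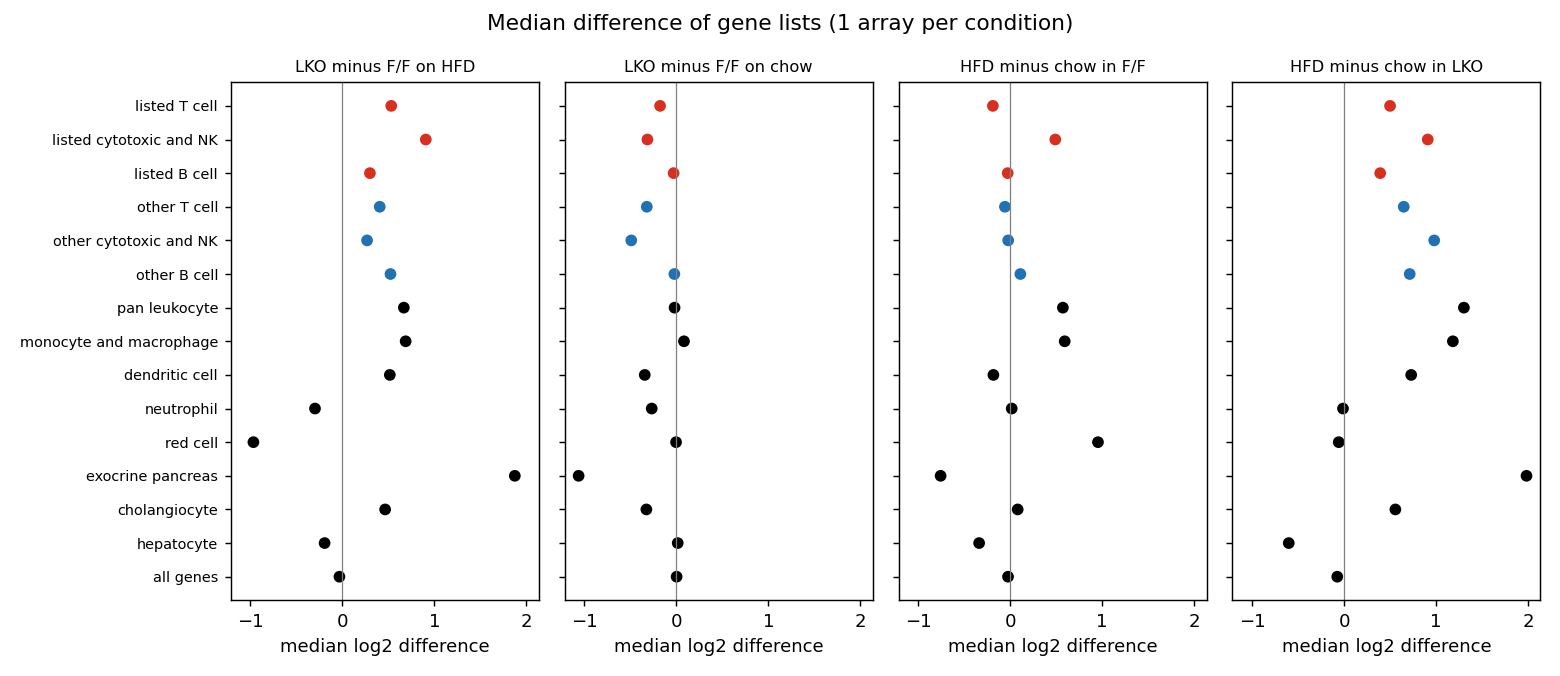
The median log2 difference of each gene list is plotted for the 4 comparisons, with the 3 listed lymphocyte classes in red, longer lymphocyte lists in blue, and lists of other cells and all genes in black. On HFD the lymphocyte, leukocyte, macrophage and pancreas lists lie right of 0 and the red cell, neutrophil and hepatocyte lists left of it. For HFD against chow in F/F, the pan-leukocyte list lies at 0.57 and the listed cytotoxic and NK genes at 0.49. The listed B cell genes lie at -0.03 there and the T cell genes at -0.19.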

How the data were processed

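The data are 4 one-colour Agilent SurePrint G3 mouse arrays of liver RNA, 1 for each genotype on each diet, grouped by the sample titles. The authors deposited the intensity of every spot as Agilent Feature Extraction 12.0.3.1 gave it, background-subtracted and spatially detrended within each array, with its flags. They also deposited a table of the same values times 1 factor per array (2.10 to 2.63) whose origin is not given in the sources used here. Outlier and background flags were used as deposited.

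Processed signals were divided by the 75th percentile of their array (over 59305 spots that are not controls) and put on the log2 scale in Python 3.11.15 (numpy 2.4.6, pandas 2.3.3), after averaging spots of 1 probe without flagged outliers (76 to 132 per array). Accessions were matched to symbols through the RefSeq table of GRCm38.p6, for 33767 of 56605 probes. The members, lists and motifs were chosen with earlier results of these data known. With 1 array per condition, no p-value was computed. The genes named are the members at least 2-fold apart in any comparison, the members of highest signal in each class, and at most 6 of the longer lists, and further members were described by their roles. The split at a mean signal of 100 was added after seeing the data. The steps were tested on simulated data. Alternatives used normexp (limma 3.58.1 in R 4.3.3), other scalings, filters, probes and a threshold of 1.5-fold. Immunoglobulin genes are not analysed here. The number of arrays limits the precision.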

Additional observations from a re-analysis of the deposited data

Results flagged for a closer look

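The difference between LKO and F/F had opposite directions on the 2 diets for the lymphocyte genes as a whole, with a median of 0.52 on HFD and -0.17 on chow. So it had for T cell genes (0.53 and -0.18) and for cytotoxic and NK genes (0.91 and -0.31). The HFD medians include bounds that could only come out higher. Over the measured genes alone, the medians of the lymphocyte genes as a whole were 0.55 on HFD and -0.17 on chow. On chow, 19 of 28 measured genes lay within 2 technical SDs. With normexp both medians of the whole list were smaller in size and kept their signs. Lists of other cells had opposite directions too, with medians of 1.87 and -1.06 for exocrine pancreas, 0.52 and -0.34 for dendritic cells and 0.46 and -0.33 for cholangiocytes. Among single lymphocyte genes measured on all 4 arrays, Cd3g was the only one with more than 0.5 (log2) and more than 2 technical SDs in both directions, with 1.27 on HFD and -0.77 on chow. Whether the diets differ in this was not tested, and each value rests on 1 array per condition.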

How the results depend on the processing

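No paired analysis was possible because each condition had 1 array and no test was made, and no array could be left out. Of 11 alternatives 3 were chosen after seeing the data: the dimmest probe, every probe counted on its own, and leaving out Cd4, Cd247 and Zap70. Values below are log2 medians or numbers of listed genes at least 2-fold apart.

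With normexp and its offset of 50, which shrinks differences of dim probes by construction, the median between LKO and F/F was 0.0926 on HFD and -0.0393 on chow, and that between HFD and chow in LKO was 0.0309. The numbers were then 1 higher in LKO on HFD, 0 higher in LKO on chow, 0 lower on HFD in F/F, and 2 higher and 0 lower on HFD in LKO. B cell medians turned to 0.0527 (genotype, chow) and -0.0639 (diet, LKO), and the T cell median to -0.00541 (diet, LKO). With no filter, 14 were higher and 1 lower in LKO on HFD (median 0.64), 1 was lower in LKO on chow, in F/F 3 were higher on HFD and 4 lower, and the diet median in LKO was 0.62. At 1.5-fold, 15 were higher in LKO on HFD, 3 lower in LKO on chow, and in F/F 7 were higher on HFD and 2 lower, against 8.12%, 3.48%, 13.3% and 9.62% of all genes. With genes well above background on all 4 arrays, 1 was higher in LKO on chow. With the mean of all probes, the medians were 0.37 (genotype, HFD) and -0.0339 (diet, F/F), 0 were lower on HFD in F/F, and B cell medians turned to 0.0294 (genotype, chow) and 0.0636 (diet, F/F).

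With the deposited table, 3 were higher on HFD in F/F, and the medians turned to 0.00527 for the listed genes and 0.11 for B cell genes. This table also moved the diet median of all genes in F/F from -0.02 to 0.11 and in LKO from -0.07 to 0.07. With quantile normalization 1 was higher on HFD in F/F and the B cell median turned to 0.0167, and with the percentile over detected probes that median turned to 0.00884. With the dimmest probe, 0 were lower on HFD in F/F, the diet medians were 0.0488 in F/F and 0.92 in LKO, and the B cell median in F/F turned to 0.11. With every probe on its own the median between LKO and F/F on HFD was 0.42. No alternative turned the direction of the median of all listed genes between LKO and F/F on either diet, or that between HFD and chow in LKO. The cause of these changes was not tested, and with normexp the part of the offset was not separated from that of the other starting signal. Signals near background limit what the dim genes can show, and technical spots say nothing of the spread between arrays or between mice.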
